A study of Rattus norvegicus with 8 samples.

Results

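Chemokine ligands are small secreted proteins that guide leukocytes and glia, and 10 of their genes were followed here in the rat hypothalamus after an injection of all-*trans* retinoic acid (RA) into the third ventricle. The members were chosen by name, with earlier results of these data known. They are *Ccl2*, *Ccl3*, *Ccl4*, *Ccl7*, *Ccl12*, *Cxcl10*, *Cxcl12*, *Cxcl13*, *Cxcl16* and *Cx3cl1*. All 10 were on the array, out of 15159 genes that could be named, and each was read through its brightest probe. The animals were male F344 rats kept in short days, and both groups carried a ventricular cannula. The RA group (4 rats) received RA and the control group (4 rats) received vehicle, and blocks of hypothalamus were taken 24 hrs later. The labels give RA at 1e-05 M and saline as vehicle, whereas the paper's methods give another RA concentration for these rats and DMSO in saline as vehicle. The RNA of both groups was compared on 8 Agilent arrays in 2 colours, with RA in Cy5 on arrays 1, 3, 6 and 8 and, as dye-swap, in Cy3 on arrays 2, 4, 5 and 7. Neither the labels nor the methods state which arrays share RNA, so the p values measure the spread between arrays, part of which may be technical. With dye-swap, 8 arrays are not 8 independent samples, and each SE below comes from 4 means of an array of either dye order.

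As background, a chemokine binds a G protein-coupled receptor on a leukocyte or glial cell and directs its movement along the ligand's gradient. Many ligand genes are nearly silent in the healthy brain and are switched on by NF-kB, STAT and IRF transcription factors when cytokines such as tumour necrosis factor, interleukin-1 or interferons arrive. A few others, among them *Cx3cl1* in neurons and *Cxcl12* in neurons, glia and vessels, are made all the time and take part in signalling between neurons, glia and vessels.

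The genes lie in a few places in the genome. *Ccl2* and *Ccl7* are neighbours on chromosome 10, with *Ccl11* alone between *Ccl7* and *Ccl12*, and *Ccl3* and *Ccl4* are neighbours further along the same chromosome. *Cxcl10* and *Cxcl13* are both on chromosome 14. RefSeq promoters of the GRCr8 build were at hand for 7 of the 10 members. The 250 bases before the transcription start are printed, on the strand of the gene, for the members described at most length below. Capitals mark every match to a TATAAA box on the gene's strand, and on either strand to an NF-kB pattern (GGG and TTCC with any 3 bases between them), an AP-1 pattern (TGA and TCA with any 1 base between them) or the core of an interferon-stimulated response element (GAAA repeated after any 2 bases).
Ccl7 (GRCr8, chr10:67513845-67514094, plus strand): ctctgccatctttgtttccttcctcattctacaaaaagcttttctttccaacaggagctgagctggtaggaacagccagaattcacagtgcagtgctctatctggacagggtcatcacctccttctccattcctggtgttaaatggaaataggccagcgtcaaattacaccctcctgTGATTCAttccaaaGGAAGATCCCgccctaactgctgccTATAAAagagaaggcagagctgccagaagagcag
Ccl12 (GRCr8, chr10:67567626-67567875, plus strand): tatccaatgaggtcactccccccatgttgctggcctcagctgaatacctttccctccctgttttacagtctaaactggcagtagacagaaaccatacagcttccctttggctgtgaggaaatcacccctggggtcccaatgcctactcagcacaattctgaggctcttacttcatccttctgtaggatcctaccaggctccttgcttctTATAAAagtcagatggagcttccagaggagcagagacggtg
Cxcl10 (GRCr8, chr14:15988816-15989065, plus strand): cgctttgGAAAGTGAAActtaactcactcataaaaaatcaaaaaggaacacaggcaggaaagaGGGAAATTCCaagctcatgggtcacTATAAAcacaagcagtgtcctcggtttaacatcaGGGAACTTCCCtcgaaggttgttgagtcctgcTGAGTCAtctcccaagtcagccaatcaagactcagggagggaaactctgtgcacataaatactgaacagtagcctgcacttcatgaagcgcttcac
Cxcl13 (GRCr8, chr14:13917921-13918170, minus strand): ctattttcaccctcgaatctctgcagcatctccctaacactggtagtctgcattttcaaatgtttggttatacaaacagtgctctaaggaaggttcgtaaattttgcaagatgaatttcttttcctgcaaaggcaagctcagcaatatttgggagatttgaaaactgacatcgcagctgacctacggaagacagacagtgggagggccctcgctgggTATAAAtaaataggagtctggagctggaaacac
Cxcl16 (GRCr8, chr10:55669951-55670200, minus strand): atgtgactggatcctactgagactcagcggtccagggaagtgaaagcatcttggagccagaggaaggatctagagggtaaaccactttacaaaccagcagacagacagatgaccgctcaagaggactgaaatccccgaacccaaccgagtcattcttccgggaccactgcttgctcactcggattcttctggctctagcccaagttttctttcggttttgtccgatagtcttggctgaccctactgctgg

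In *Ccl7*, the capitals are an AP-1 match from base -73 to -67 before the start, an NF-kB match on the opposite strand from -59 to -50, and a TATAAA box at -34. *Ccl12* held a TATAAA box at -41 and *Cxcl13* held one at -33, with no other match. *Cxcl10* held 1 interferon-type match at -243, a TATAAA at -162, an AP-1 match at -96 and 3 NF-kB matches, of which the 2 around -128 to -118 overlap on opposite strands. *Cxcl16* and *Cxcl12* held none of these letters, and *Cx3cl1* held a TATAAA alone, at -78. Over all 33469 promoters, each from 250 bases before to 50 after the start, 5.37% held the NF-kB letters, 7.33% the AP-1 letters, 3.92% the interferon-type letters and 8.8% the TATAAA. The retinoic acid response elements DR5 and DR2, searched on both strands, were in 0.382% and 0.17% of promoters and in none of the 7 members' windows.

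Of 30367 probes, 57.4% to 74.6% per array stood well above background after RA and 61.2% to 74.5% in vehicle. These shares went with the dye. For RA they were 73.3% to 74.6% in Cy5 and 57.4% to 63.5% in Cy3, and for vehicle 67.6% to 74.5% in Cy5 and 61.2% to 66.5% in Cy3. The labelled tissue went with its markers, as 9 of 9 measured hypothalamic peptide genes (*Oxt* was not named on the array) were well above background on every array in both channels. Some arrays stood apart in their tissue markers. The median log2 ratio of 8 choroid plexus markers was -1.37 and -1.42 on arrays 6 and 7, against 0.08 to 0.57 elsewhere. The median of the hypothalamic peptide genes was -0.94 and -0.88 on arrays 5 and 8, against -0.05 to 0.33 on the remaining ones. The arrays lay in 2 rows of 1 slide, arrays 1 to 4 in the first row and 5 to 8 in the second, each row with 2 arrays of each dye order.

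RA raised 4 of the 10 ligands at an unadjusted p under 0.01, the threshold that the methods set. These were *Ccl2* (4.37-fold), *Cxcl13* (3.12-fold), *Ccl12* (2.14-fold) and *Cxcl16* (1.67-fold), and no member was lower. Among all named genes, 3.52% were higher at this threshold and 0.792% were lower. As the members were chosen with earlier results known, this and the next shares describe these 10 genes and not chemokine ligands in general. At an unadjusted p under 0.05, 7 of the 10 passed, all of them higher, against 13.1% of named genes in either direction. The log2 ratio was above 0 on every array for 5 members, against 4.07% of named genes. The log2 fold change was above 0 for 9 of the 10, against 47.6% of named genes. Its median was 0.89 over the members, whereas the median of all named genes was -0.0047. No member passed after Benjamini-Hochberg adjustment over all probes, and neither did any other probe (0 at an adjusted p under 0.05 in limma, 3292 at an unadjusted p under 0.05). Flipping the signs of 4 pair means in an exact permutation test (two-sided) cannot give less than p = 0.125, so limma p values are given here. The lowest adjusted p, 0.222, was shared by *Cxcl13*. The count of 4 fell to 1 with plain background subtraction or with Agilent's own log ratio, when *Cxcl13* alone was called, and to 2 without arrays 6 and 7, when *Ccl12* and *Cxcl13* were called. It was 7 with slide row as a term, in a fit that takes the 8 arrays as independent. Such a fit without the row term also gave 7. Since these are blocks of whole tissue, a change in the number of cells of a type and a change of RNA per cell cannot be told apart.

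**Figure D1:**
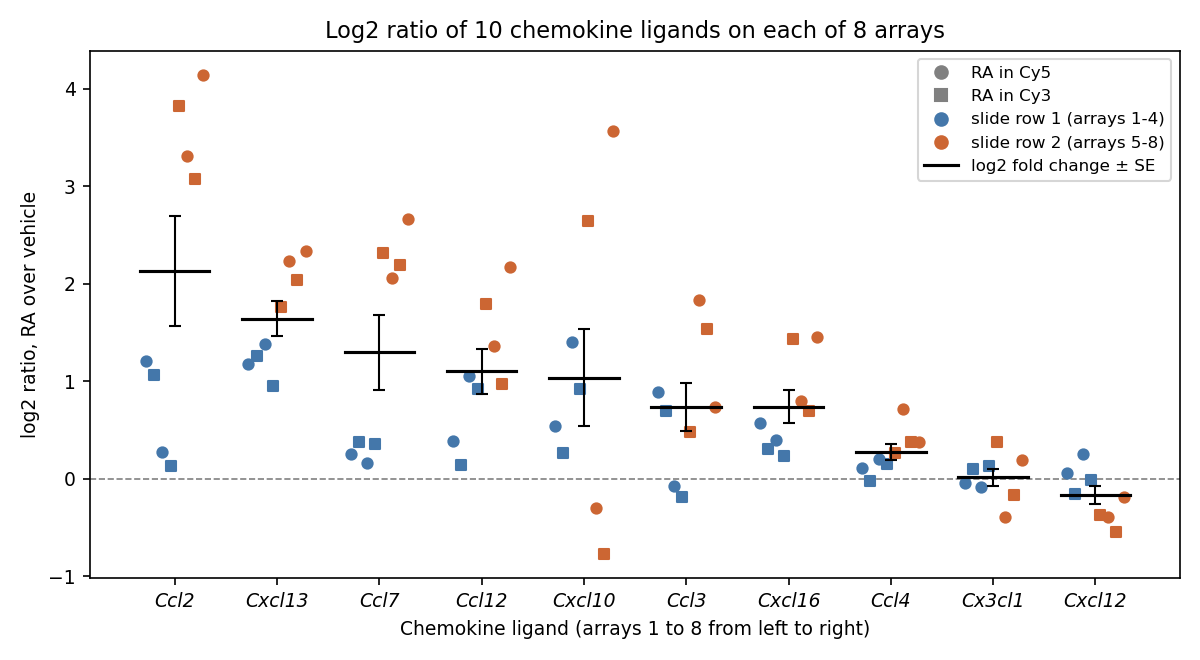
Log2 ratio of RA over vehicle (vertical axis) of each of the 10 ligands (horizontal axis) on arrays 1 to 8, drawn from left to right within a gene, with circles for RA in Cy5, squares for RA in Cy3, and colour for the slide row. Black lines are the log2 fold change with its SE from limma. *Ccl2* ranged from 0.13 to 4.14 and *Cxcl13* from 0.95 to 2.34, all above 0, while *Cx3cl1* lay on both sides of 0.

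In the vehicle channel, 5 of the 10 ligands were well above background on all 8 arrays, and none was undetected throughout. Over all named genes, 65.6% were above background in vehicle on all arrays and 18.6% on none. The ligands seen in vehicle on all 8 arrays were *Ccl3*, *Cxcl10*, *Cxcl12*, *Cxcl16* and *Cx3cl1*. *Ccl2* and *Cxcl13* were detected in vehicle on 7 arrays, missing on array 1 in both cases. The least often detected were *Ccl4* on 4 arrays, *Ccl7* on 3 and *Ccl12* on 2. In the RA channel 7 of the 10 were detected on all 8 arrays, against 63.1% of named genes, with *Ccl2*, *Ccl7* and *Cxcl13* now among them. *Ccl3* and *Ccl12* were detected there on 7 arrays and *Ccl4* on 5. Every RA channel in which a member was not detected was in Cy3 (array 4 for *Ccl3*, array 2 for *Ccl12*, arrays 2, 4 and 5 for *Ccl4*). The vehicle channel of array 1, where *Ccl2* and *Cxcl13* were missing, was in Cy3 too. As fewer probes were detected in Cy3, these counts depend on the dye as well as on the treatment.

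**Figure D2:**
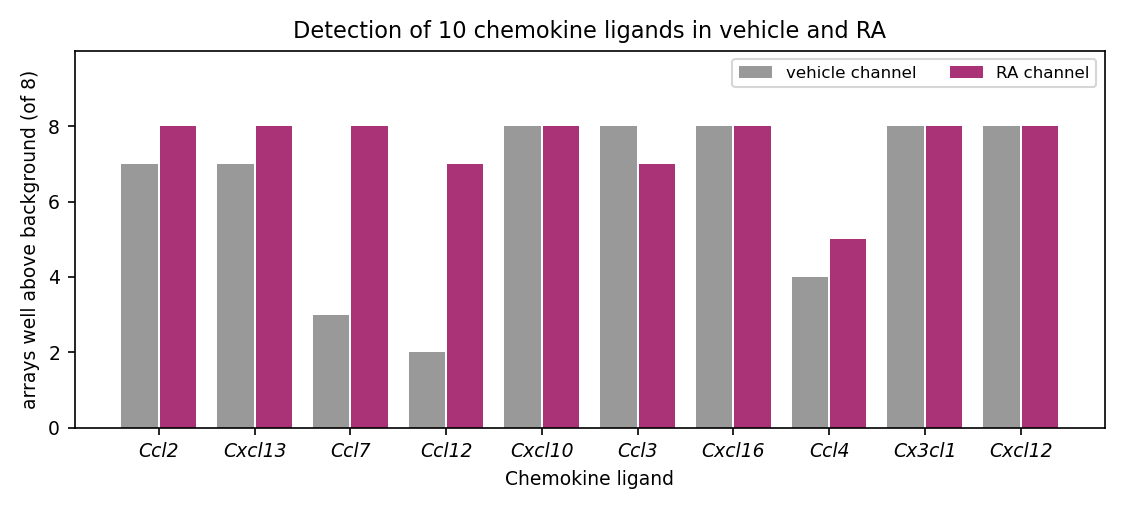
Number of arrays out of 8 (vertical axis) on which each ligand (horizontal axis) was well above background, in grey for the vehicle channel and in purple for the RA channel. *Ccl7* was detected on 3 vehicle and 8 RA channels and *Ccl12* on 2 and 7.

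The ligands of the monocyte receptor CCR2 are *Ccl2*, the main attractant of monocytes into inflamed tissue, *Ccl7*, and *Ccl12*, which rodents have as a further close relative of *Ccl2*. *Ccl2* had the highest mean rise of the 10. Its log2 ratio was 1.21, 1.06, 0.28 and 0.13 on arrays 1 to 4, and 3.82, 3.31, 3.07 and 4.14 on arrays 5 to 8. Every array was above 0, and the 4 arrays of the second slide row were all far above those of the first, without overlap. The log2 fold change was 2.13 ± 0.56 (SE, 8 arrays; 95% interval 0.80 to 3.45; unadjusted p of 0.00651 and adjusted p = 0.288 in limma). Within the first row it was 0.67 (unadjusted p of 0.00659) and within the second 3.59 (unadjusted p of 1.66e-07). Fits within a row treat its 4 arrays as separate samples. Per the methods, the dye-swap uses each sample again, so arrays do share RNA. The p values within a row, here and for the genes below, are too small where such arrays lie in the same row. The ratios of *Ccl2* were close within arrays 1 and 2, 3 and 4, 5 and 8, and 6 and 7, and each of these pairs lies in 1 row. The marker medians above also set arrays 5 and 8, and 6 and 7, apart as pairs. If these are the dye swaps, every p within a row counts its samples more than once and is too small. In 16 further fits an array of each dye order was left out, though its RNA may remain on another array. The call held in 11 of these 16 fits. Of the fits that left out a whole pair named above, it held without arrays 1 and 2 or 3 and 4, and was lost without arrays 5 and 8 or 6 and 7. It was lost without arrays 6 and 7 (1.77, unadjusted p of 0.0319), 5 and 8 (1.51, unadjusted p of 0.0208), 7 and 8 (1.64, unadjusted p of 0.0244), 5 and 6 (1.65, unadjusted p of 0.0227) or 2 and 6 (2.11, unadjusted p of 0.011). It was also lost with plain subtraction (2.87, unadjusted p of 0.0291), with Agilent's log ratio (2.88, unadjusted p of 0.0439) and when only probes well above background were fitted (2.13, unadjusted p of 0.0111).

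The level of *Ccl2* in vehicle was itself uneven. On a normalised log2 scale it was 8.02 and 8.05 on arrays 3 and 4, whereas the rest had 6.68 to 7.51. After RA it reached 7.74 to 8.29 on arrays 1 to 4 and 10.58 to 11.35 on arrays 5 to 8. The low ratios on arrays 3 and 4 thus went with the highest vehicle levels, whereas the high ratios of arrays 5 to 8 went with higher levels in the RA channel.

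*Ccl7*, the neighbour of *Ccl2*, followed the same split. Its log2 ratio was 0.16 to 0.38 on arrays 1 to 4 and 2.32, 2.05, 2.19 and 2.67 on arrays 5 to 8. All 8 arrays were above 0, but the log2 fold change of 1.30 ± 0.38 (SE, 8 arrays) did not pass the threshold (unadjusted p of 0.0115 and adjusted p = 0.321 in limma). Within the rows, the values were 0.29 (unadjusted p of 0.00114) and 2.31 (unadjusted p of 1.47e-07). *Ccl12* was more even, at 0.39, 0.14, 1.05 and 0.92 on arrays 1 to 4 and 1.79, 1.37, 0.98 and 2.17 on arrays 5 to 8, with the rows overlapping. Its log2 fold change was 1.10 ± 0.23 (SE, 8 arrays; 95% interval 0.56 to 1.64; unadjusted p of 0.0018 and adjusted p = 0.25 in limma). It was called in all 16 fits that left out an array of each dye order, with values of 0.81 to 1.38.

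Both probes were near background in vehicle, where *Ccl12* had a mean log2 level of 6.57 ± 0.29 (SD over 8 arrays) and *Ccl7* of 6.63 ± 0.20. The offset used in background correction shrinks ratios at such levels, and with plain subtraction the log2 fold change was 2.38 for *Ccl12* (unadjusted p of 0.0148) and 2.36 for *Ccl7* (unadjusted p of 0.0229). *Ccl2*, *Ccl7* and *Ccl12* are related in sequence, the probe sequences were not analysed here, and how far one transcript binds the probe of another is uncertain.

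*Ccl3* and *Ccl4*, neighbouring genes whose products attract monocytes and T cells, did not pass the threshold. The log2 ratio of *Ccl3* was 0.89 and 0.69 on arrays 1 and 2, -0.07 and -0.19 on arrays 3 and 4, 0.48 on array 5, 1.83 and 1.53 on arrays 6 and 7, and 0.73 on array 8. It was thus above 0 on 6 arrays and highest on arrays 6 and 7, and the log2 fold change was 0.74 ± 0.24 (SE, 8 arrays; unadjusted p of 0.0181 and adjusted p = 0.347 in limma). Without arrays 6 and 7 the value was 0.42 (unadjusted p of 0.0413). On these arrays *Ccl3* was high in both channels, with log2 levels in vehicle of 8.92 and 9.06 against 6.96 to 7.23 on the others, and in RA of 10.75 and 10.60 against 6.78 to 8.12. *Ccl4* had ratios from -0.02 to 0.71, above 0 on 7 of 8 arrays, and a log2 fold change of 0.27 ± 0.08 (SE, 8 arrays; unadjusted p of 0.0119 and adjusted p = 0.321 in limma). It was not above background in vehicle on 4 arrays, and plain subtraction gave 0.84 (unadjusted p of 0.0116). The 2 genes are also close in sequence, with the same uncertainty on shared binding.

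*Cxcl10*, an interferon-inducible ligand of CXCR3 that draws activated T cells, was the most variable member after *Ccl2* and had the arrays with the most opposed directions. Its log2 ratio was 0.54, 0.26, 1.40 and 0.92 on arrays 1 to 4, 2.64 on array 5, -0.30 and -0.77 on arrays 6 and 7, and 3.57 on array 8. The arrays of the second row thus held both the highest and the lowest values. The log2 fold change of 1.03 ± 0.50 (SE, 8 arrays; 95% interval -0.13 to 2.20) did not pass the threshold (unadjusted p of 0.0751 and adjusted p = 0.518 in limma). It was 1.56 without arrays 6 and 7 (unadjusted p of 0.0133) and 0.34 without arrays 5 and 8 (unadjusted p of 0.25), whereas within the first row alone it was 0.78 (unadjusted p of 0.00107).

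The levels of *Cxcl10* were uneven in both channels. In vehicle the log2 level of 8.78 and 9.02 on arrays 6 and 7 was above the 7.20 to 7.61 of the rest. In the RA channel, arrays 6 and 7 had 8.47 and 8.25, inside the range of 7.48 to 8.78 seen on arrays 1 to 4, while arrays 5 and 8 reached 10.14 and 11.18. The promoter of *Cxcl10*, printed above, was the only one of the 7 with an interferon-type match.

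*Cxcl13* attracts B cells through CXCR5 and organises lymphoid follicles, and it was the member with the lowest p. The log2 ratio was 1.18, 1.26, 1.38 and 0.95 on arrays 1 to 4 and 1.77, 2.23, 2.04 and 2.34 on arrays 5 to 8. All arrays were well above 0, and the second row was again above the first without overlap. The log2 fold change was 1.64 ± 0.18 (SE, 8 arrays; 95% interval 1.23 to 2.06; unadjusted p of 3.22e-05 and adjusted p = 0.222 in limma). It passed the threshold under all 33 alternatives, from 1.19 in the first row alone to 2.53 with plain subtraction. Some of these could not lose the call. Aquantile scaling of intensities between arrays left the ratios unchanged, and a single pairing of arrays has a p no larger than the one kept. The levels of *Cxcl13* were uneven between arrays, with both channels of arrays 6 and 7 high, at 9.02 and 9.08 in vehicle and 11.25 and 11.12 in RA, against 6.45 to 7.23 and 7.70 to 9.45 on the other arrays. The ratio without arrays 6 and 7 was 1.48 (unadjusted p of 0.000157).

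*Cxcl12*, the ligand of CXCR4 that is made constitutively in brain, had the lowest log2 fold change of the 10. Its log2 ratio was 0.06, -0.15, 0.25 and -0.02 on arrays 1 to 4 and -0.37, -0.39, -0.54 and -0.18 on arrays 5 to 8. The first row lay on both sides of 0 and the second entirely below it, with no overlap between the rows. Over all arrays the log2 fold change was -0.17 ± 0.09 (SE, 8 arrays; 95% interval -0.39 to 0.05; unadjusted p of 0.111 and adjusted p = 0.585 in limma). It was -0.37 in the second row (unadjusted p of 0.00126) and 0.035 in the first (unadjusted p of 0.588). A further probe, annotated to another transcript of the gene, gave -0.03 ± 0.05 (SE, 8 arrays; unadjusted p of 0.556).

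*Cxcl16* and *Cx3cl1* are the ligands made as membrane proteins with a chemokine domain on a stalk, from which proteases release them. *Cxcl16*, which also takes up oxidised lipoprotein in macrophages, was higher on all 8 arrays, with log2 ratios of 0.57, 0.30, 0.39 and 0.24 on arrays 1 to 4 and 1.44, 0.80, 0.70 and 1.45 on arrays 5 to 8. Each array of the second row was above each of the first. The log2 fold change was 0.74 ± 0.17 (SE, 8 arrays; 95% interval 0.34 to 1.13; unadjusted p of 0.00319 and adjusted p = 0.268 in limma). The call was lost without arrays 6 and 7 at nearly the same value (0.73, unadjusted p of 0.0132), and the rows gave 0.38 (unadjusted p of 0.000322) and 1.10 (unadjusted p of 0.000172).

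*Cx3cl1*, the neuronal ligand of the microglial receptor CX3CR1, had the log2 fold change nearest to 0. Its log2 ratios ran from -0.40 on array 6 to 0.38 on array 5, 4 above 0 and 4 below. The log2 fold change was 0.01 ± 0.09 (SE, 8 arrays; unadjusted p of 0.875), with a 95% interval of -0.19 to 0.22. Its level was steady, at 14.92 ± 0.17 in vehicle and 14.93 ± 0.19 in RA on the log2 scale (SD over 8 arrays).

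**Figure D3:**
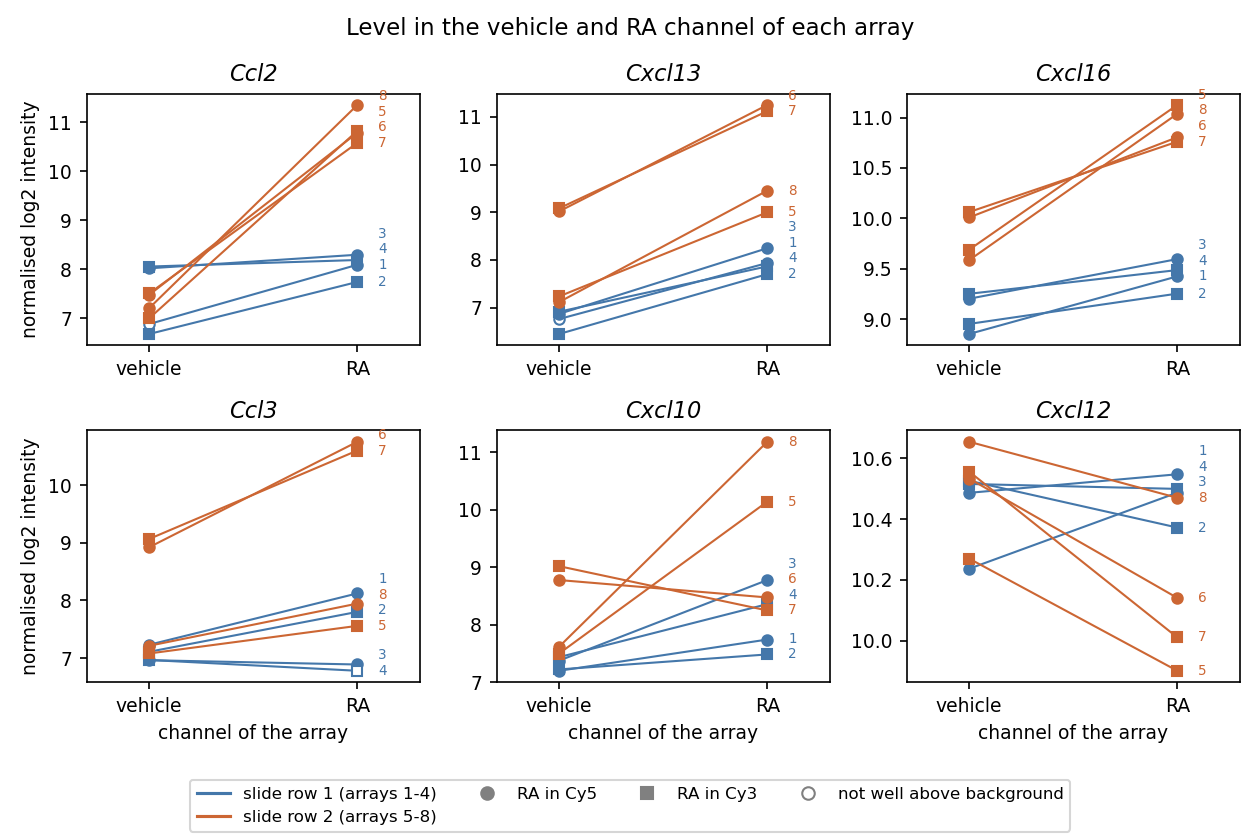
Normalised log2 intensity (vertical axis, its range set for each gene) of 6 ligands in the vehicle and RA channel of each array, joined by a line and numbered at the right, with circles for RA in Cy5, squares for RA in Cy3, colour for the slide row and open symbols where the channel was not well above background. For *Ccl3*, *Cxcl10* and *Cxcl13* the vehicle levels of arrays 6 and 7 lie above the other 6, and for *Ccl2* the RA levels of arrays 5 to 8 lie above those of arrays 1 to 4.

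The members thus differed in how their response was spread over the arrays. The log2 ratio was higher on all 4 arrays of the second row than on all 4 of the first for 5 of the 10 members, namely *Ccl2*, *Ccl4*, *Ccl7*, *Cxcl13* and *Cxcl16*. Of all named genes, 5.3% had this order. *Cxcl12* had the opposite order, as did 2.13% of named genes. The rows share a slide, a scan and a balanced dye order, and which rats lay in each row is not stated, so row and animal cannot be told apart. The vehicle level on arrays 6 and 7 was above that of the other 6 arrays for 6 of the 10 members, *Ccl3*, *Ccl4*, *Ccl12*, *Cxcl10*, *Cxcl13* and *Cxcl16*, against 6.54% of named genes. These are the arrays on which the choroid plexus markers were higher in vehicle than in RA, and the part of that in the members' levels was not tested. In the RA channel, arrays 6 and 7 were above the others for *Ccl3*, *Ccl4* and *Cxcl13*, against 6.64% of named genes. The RA level on arrays 5 and 8 was above that of the others for *Ccl2*, *Ccl7*, *Cxcl10* and *Cxcl16*, against 5.77% of named genes.

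The genes whose 8 log2 ratios were most like those of *Ccl2*, among 10041 other genes detected on all arrays, were *Slfn2* (Pearson r = 0.994), *Clec12a* (r = 0.986) and *Slamf9* (r = 0.984). These are correlations over 8 arrays that share a slide, and because the ratios of *Ccl2* fall into 2 sets by slide row, they cannot be told apart from that split. The log2 fold changes of the 3 genes were 0.55, 1.07 and 0.85. For *Cxcl12* the most alike were *Gjb6* (r = 0.979), a connexin of astrocytes, *Mmd2* (r = 0.975) and *Slc22a5* (r = 0.963). Their log2 fold changes were -0.33, -0.14 and 0.05. The ratios of *Cxcl12* also fall into 2 sets by slide row, so the same limit holds.

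**Figure D4:**
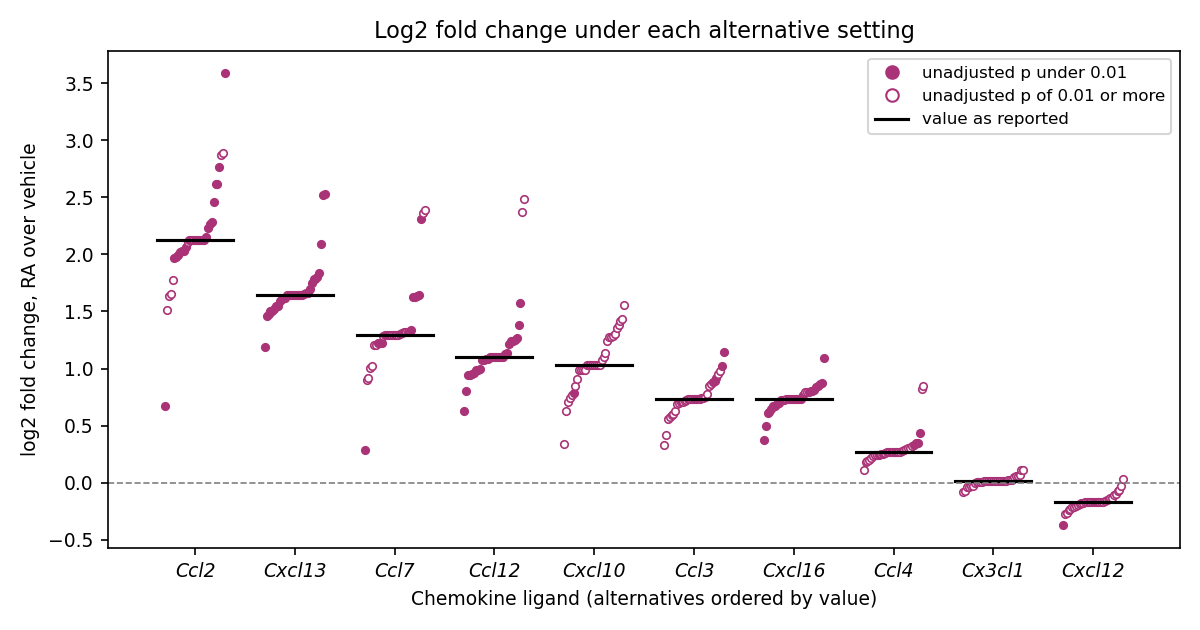
Log2 fold change of RA over vehicle (vertical axis) of each ligand (horizontal axis) under each alternative setting, ordered by value within a gene and filled where the unadjusted p was under 0.01, with a black line at the value as reported. All points of *Cxcl13* are filled, *Ccl12* is filled in 30 of 32 and *Cxcl10* in 1 of 33, and *Cx3cl1* in none. Settings that could not lose a call are included.

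Among 25 other chemokine ligands measured of 26 listed (*Cxcl3* was not named on the array), 3 were higher at the same unadjusted p under 0.01 and none lower. The median log2 fold change was 0.04, and 9 of the 25 were not above background in vehicle on any array. Larger log2 fold changes that did not pass were those of *Cxcl2* (1.65 ± 0.58, SE), *Ccl20* (1.49 ± 0.48, SE) and *Cxcl1* (1.01 ± 0.53, SE). The adjusted p values printed from here on are those over all probes in limma, and none was under 0.05. *Cxcl17*, a mucosal chemokine, rose by 0.83 ± 0.17 (SE; adjusted p = 0.247). *Ccl6*, a rodent CC chemokine of myeloid cells, rose by 0.70 ± 0.20 (SE; adjusted p = 0.3). *Cxcl11*, which shares CXCR3 with *Cxcl10*, rose by 0.57 ± 0.15 (SE; adjusted p = 0.288) and was detected in RA on 4 arrays and in vehicle on 1. The values of *Cxcl17*, *Ccl6* and *Cxcl11* are log2 fold changes over 8 arrays, above 0 on each. Of 7 measured proteases that trim or shed chemokines (of 8 listed), none was called in either direction.

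Of the 19 chemokine receptors described here (*Ccr8*, *Ackr1* and *Ackr4* were not named on the array), 8 were not above background in vehicle on any array. None of the 19 passed an unadjusted p under 0.01 in limma, 3 had an unadjusted p under 0.05, and the median log2 fold change was 0.02. *Ccr2*, the receptor of *Ccl2*, *Ccl7* and *Ccl12*, had a log2 fold change of 0.12 (adjusted p = 0.455) and was above background on 1 RA and 0 vehicle channels. *Ccr1* had 0.0003 and was detected on 1 array in each channel. *Cxcr3*, the receptor of *Cxcl10*, had 0.27 (adjusted p = 0.403) and was detected in RA on 3 arrays and in vehicle on 0. *Cxcr5*, the receptor of *Cxcl13*, had -0.04 and was detected on 1 array in each channel, and *Cxcr6*, that of *Cxcl16*, had 0.02 and was detected on none. The receptors of the constitutive ligands were detected in nearly all channels, with log2 fold changes of 0.25 for *Cxcr4* (adjusted p = 0.587), 0.08 for *Cx3cr1* (adjusted p = 0.674) and -0.07 for *Ackr3* (adjusted p = 0.752), the scavenging receptor of *Cxcl12*.

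Among 9 cytokines known to induce chemokines, 2 were higher and none lower. *Tnf* rose by 0.82 ± 0.14 on the log2 scale (SE, 8 arrays; adjusted p = 0.222) and *Il1b* by 1.30 ± 0.31 (SE, 8 arrays; adjusted p = 0.268), both above 0 on every array. *Ifng*, *Il6* and *Ifnb1* were not well above background on any array. Of 12 measured transcription factors and regulators of the NF-kB, STAT, IRF, C/EBP and AP-1 families (16 listed), 6 were higher and none lower, and every one of the 12 lay above 0, at a median log2 fold change of 0.36. The rise was 0.51 ± 0.10 for *Stat3* (SE; adjusted p = 0.227), 0.38 ± 0.08 for *Nfkb2* (SE; adjusted p = 0.257), 0.33 ± 0.08 for *Irf9* (SE; adjusted p = 0.268), 0.94 ± 0.25 for *Cebpb* (SE; adjusted p = 0.287) and 0.19 ± 0.05 for *Irf3* (SE; adjusted p = 0.297). The sixth, *Stat2*, had 0.39 ± 0.11 (SE; adjusted p = 0.305). The DNA-binding subunits *Nfkb1*, *Rel* and *Relb* could not be read, as no probe carried their name.

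**Figure D5:**
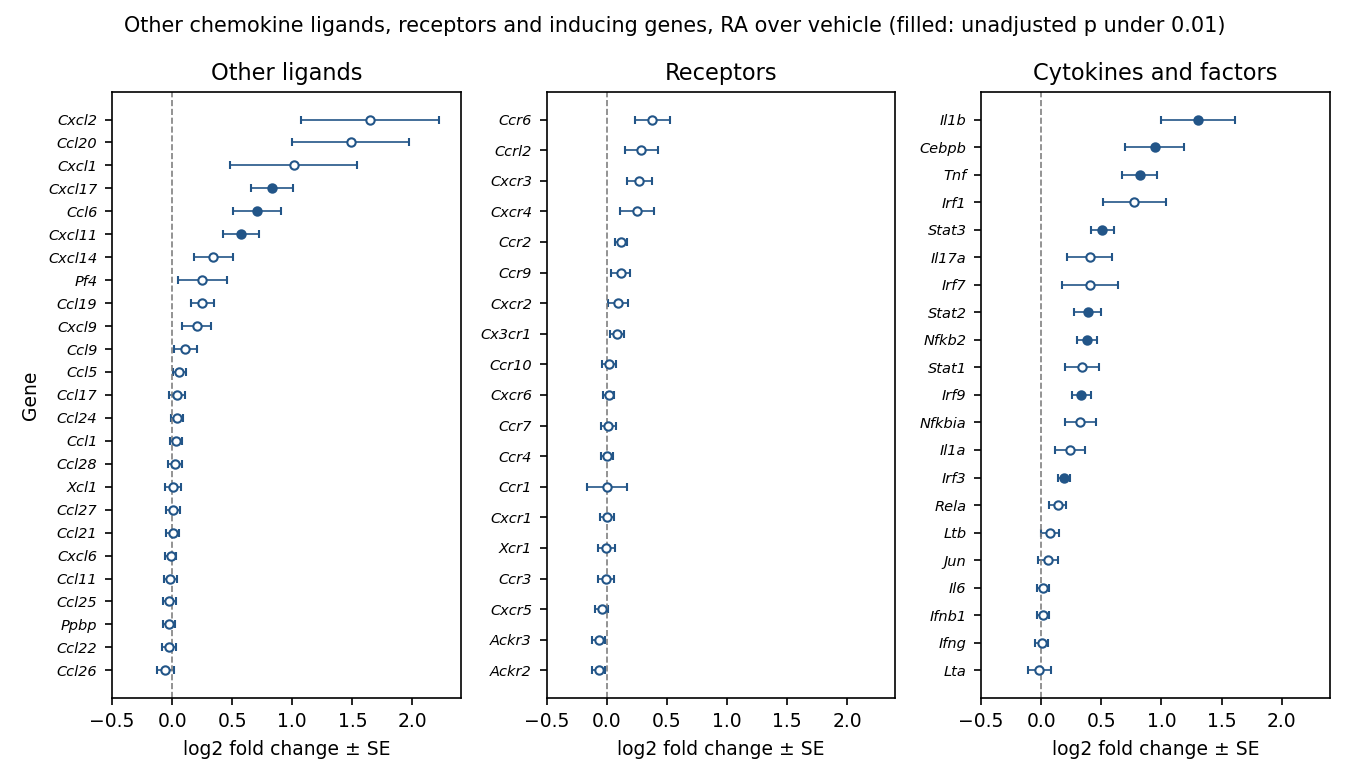
Log2 fold change of RA over vehicle with its SE over 8 arrays (horizontal axis) of 25 other chemokine ligands, 19 receptors and 21 cytokines and transcription factors (vertical axis), filled where the unadjusted p was under 0.01. No receptor shown is filled, and *Il1b* has the highest value of the filled cytokines and factors.

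Markers of cells that make or answer chemokines were called in part. Of 7 measured monocyte and macrophage markers (8 listed), *Plac8* (log2 fold change 2.03, adjusted p = 0.222), *Cd14* (1.43, adjusted p = 0.222) and *Lyz2* (1.30, adjusted p = 0.227) were higher and none was lower. The summed signal of this list, in linear units of normalised intensity, was 9890 to 45973 in RA and 5807 to 11786 in vehicle. It was higher in RA on 8 of 8 arrays, as were the sums of the microglia, neutrophil and tanycyte lists below. Of its other markers, *F13a1* was above background on 7 RA and 8 vehicle channels, *Cd163* on 7 and 5, *Mrc1* on 2 and 2, and *Ccr2* on 1 and 0. The median log2 fold change was 0.17 for this list, 0.08 for the microglia list and 0.09 for the neutrophil list. Of 7 microglia markers, *Aif1* (0.88, adjusted p = 0.222) and *Itgam* (0.87, adjusted p = 0.25) were higher and *Tmem119*, a marker of resting microglia, was lower (-0.52, adjusted p = 0.257), with summed signals of 18215 to 28162.5 in RA and 16204 to 21719 in vehicle. Of 7 neutrophil markers, *Csf3r* (0.42, adjusted p = 0.283) and *S100a9* (1.25, adjusted p = 0.299) were higher, *Elane* was at background in all channels, and the sum was 755 to 2189 in RA and 655 to 831 in vehicle. The part of these cells in the ligands' values was not tested.

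Markers of further cell types had few calls. None of 7 T cell markers passed the threshold, although 4 had an unadjusted p under 0.05, and the summed signal was 815 to 1460 in RA and 810 to 899 in vehicle. Among 6 astrocyte markers, *Gfap* was higher (1.40, adjusted p = 0.222) and *Gja1* lower (-0.22, adjusted p = 0.29), and the summed signals of RA and vehicle overlapped (50930 to 65713 and 53116 to 58468). Among 5 tanycyte and ependymal markers *Vim* was higher (0.62, adjusted p = 0.288). None of 6 endothelial, 4 neuronal, 8 choroid plexus or 9 hypothalamic peptide markers was called.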

How the data were processed

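The authors deposited the scanner output of 8 two-colour arrays (Agilent Feature Extraction 10.7.3.1 per the file headers), holding the intensity of each spot in Cy3 and Cy5 and Agilent's log10 ratio. The authors also deposited normalised log2 ratios, used here as an alternative. Their methods name R, loess, averaging of identical probes, and limma with dye-swap as a block in the test. The members and gene lists were chosen with earlier results of these data known.

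With R 4.3.3 and limma 3.58.1, median signals were background-corrected by normexp (offset 50), controls and 0.913% to 2.42% of spots (outliers) were dropped, arrays were loess-normalised, probes were averaged and ratios were turned to RA over vehicle. As the arrays that share RNA are not named, all 24 pairings of 1 array of each dye order were fitted on 4 pair means, and the largest p was kept. An unadjusted p under 0.01, from the methods, made a call, and Benjamini-Hochberg adjustment covered 30367 probes. Intensity levels were made comparable between arrays by Aquantile scaling, and no level was set against that of another probe. A channel was well above background where a share of at least 0.5 of a probe's spots carried Agilent's mark. No spot of a member was saturated. Transcript accessions gave 18006 probes (59.3%) a RefSeq name of GRCr8, and the brightest probe stood for a gene. Named were all members, up to 5 called genes of each other list, the members' receptors, and the 3 genes most like the members with the highest and lowest fold change. Also named were genes at background or missing from the array, and other ligands of larger fold change that were not called. A gene of the lists is not reported here. The fits were tested on simulated data. Precision is limited by the number of arrays.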

Additional observations from a re-analysis of the deposited data

How the results depend on the processing

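The number of all probes with an unadjusted p under 0.01, 988 as reported, was 237 with plain background subtraction, 330 with Agilent's log ratio, 2481 with 8 independent arrays, 1758 with pairs as a random block, 2161 with RA in Cy5 only, 2317 with RA in Cy3 only, 3142 in the pairing with the most calls, 3111 with slide row as a term and 2290 in the second slide row alone. Leaving out 1 array of each dye order gave 455 to 1111. The number of members that were higher, 4 as reported, was 1 with plain subtraction, 1 with Agilent's log ratio, 2 among probes well above background on all 8 arrays, and 7 with 8 independent arrays, the random block, the pairing with the most calls, slide row as a term or the second row alone. Leaving out 1 array of each dye order gave 2 (without arrays 6 and 7) to 7 (without arrays 2 and 3). *Cxcl12* turned to 0.035 in the first slide row and *Cx3cl1* to -0.083 with RA in Cy5 only. Leaving out 1 array of each dye order gave *Cx3cl1* values of -0.076 (without arrays 5 and 8) to 0.11 (without arrays 6 and 7), also below 0 without arrays 1 and 5, 3 and 5, 2 and 8 or 4 and 8. The causes of these shifts were not tested. No other member changed direction. Under 32 to 34 alternatives each, *Cxcl13* stayed under 0.01 in 33 of 33, *Ccl12* in 30 of 32, *Cxcl16* in 30 of 33 and *Ccl2* in 25 of 33, while *Ccl7* was under 0.01 in 18 of 33, *Ccl3* in 11 of 33 and *Ccl4* in 11 of 32. These tallies include settings that could not lose a call, namely Aquantile scaling, which left the ratios unchanged, and single pairings, whose p cannot exceed the largest one kept. Other settings took arrays that share RNA as independent. The 2 dye orders share no replicate number and the arrays that share RNA are not named, so no single pairing was taken as known. Over the 24 pairings 4 to 8 members were higher. The pairing 1 with 2, 3 with 4, 6 with 7 and 8 with 5 gave the fewest calls, 1081 probes and 4 members. The log2 ratios of *Ccl3* were close within its pairs (0.89 and 0.69, -0.07 and -0.19, 1.83 and 1.53, 0.73 and 0.48). If these are the dye swaps, the other pairings mix different rats within a pair, and their higher counts carry less weight. Low signal over background in vehicle limits the folds of *Ccl4*, *Ccl7* and *Ccl12*. The folds of *Ccl2* and *Cxcl13*, not well above background in vehicle on array 1, also depend on the background correction. Their log2 fold changes were 2.87 and 2.53 with plain subtraction, against 2.13 and 1.64 as reported.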
